A study of Mus musculus with 12 samples.

Results

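The RNA of CCE mouse embryonic stem cells, an established line, was measured 2, 4 and 6 days after the cells had been transduced with a hairpin against the long noncoding RNA TUNA, and the day 4 state is described here against the days on either side of it. The measure is the contrast of the mean of the 3 day 4 libraries with the average of the day 2 and day 6 means, on the log2(normalized count + 1) scale. A gene that only drifts steadily from day 2 to day 6 has a contrast near 0, and a gene that peaks or dips at day 4 does not. The contrast uses 9 of the 12 libraries of the study and 8492 of its 37477 gene rows, those that reached 10 normalized counts in 3 or more of the 9. It was chosen by day alone, without reference to any gene's level.

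All 9 libraries held total RNA of cells kept in serum with LIF, the cytokine that maintains such cells undifferentiated. The cells carried a pLKO.1-puro lentivirus that expressed the TUNA hairpin, and puromycin was kept on them from the day after transduction. Each day has 3 libraries. The remaining 3 libraries, of a control hairpin at day 2, entered no test of the contrast and are given beside some values. Control libraries of days 4 and 6 were not analysed here, so days in culture and under puromycin cannot be told apart from days of hairpin expression. Whether replicates were separate cultures is not in the labels, so p-values reflect the spread among the 3 libraries of a day, and that spread may be technical. Neither flank nor day 4 had any signal in the row of TUNA itself (older symbol 2810011L19Rik, at 0 throughout), so the knockdown was not checked by these data.

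As background, cells sense oxygen through prolyl hydroxylases that mark the HIF alpha subunits for destruction by the VHL ligase. When the hydroxylases are slow, HIF accumulates, pairs with ARNT and binds short ACGTG or GCGTG elements near genes for glycolysis, lactate export, vessel growth and mitophagy, and near the hydroxylase genes themselves. Mouse embryonic stem cells in serum and LIF also depend on ERK signalling for their readiness to differentiate, and they express the miR-290 cluster as their most abundant microRNAs.

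The deposited values gave 3522716 to 5653610 reads per library, of which 60.4% to 76.9% lay in 3 rows, led by the U3 small nucleolar RNA row Rnu3a. Outside them 936578 to 2025166 reads remained. The share in those 3 rows was 72.7% to 74.5% in day 2 libraries and 60.4% to 69.3% in day 6 libraries, and replicates 1, 2 and 3 of day 4 had 64.2%, 72.9% and 76.9%. The stem cell genes Pou5f1 (429.9 to 698 normalized counts), Sox2 (359 to 695), Nanog (198 to 483) and Zfp42 (252 to 468) were present in all 9 libraries, while Col1a1, Col1a2, Col3a1, Dcn and Lum of fibroblasts, Sox17, Afp and Ttr of endoderm, Hand1 of trophoblast and Mixl1 and Mesp1 of mesoderm were listed at 0 in every one. Other defining markers were above 0 in some libraries at low levels: Gata6 in 9 of 9 (up to 13.7 normalized counts), Eomes in 8 (up to 7.58), Thy1, Gata4 and Sox7 in 5 each (up to 4.48), Cdx2 in 3 (up to 6.64), Gata3 and T in 2 each (up to 3.41) and Elf5 in 1 (1.12). The neural markers Pax6, Sox1 and Tubb3 were above 0 in all 9 (up to 11.3).

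At day 4, 249 genes were higher (2.93% of those tested) and 283 lower (3.33%) than the average of days 2 and 6, by limma with Benjamini-Hochberg adjustment at a threshold of 0.05. The median size of the change was 0.90 for the higher genes and 0.83 for the lower ones, while all 8492 genes had a median contrast of -0.003. The day 4 mean lay above both flanks in 246 of the 249 and below both in 276 of the 283. In 193 of the higher and 209 of the lower genes, the 3 day 4 libraries did not overlap with any of the other 6. Among all 8492 genes, the day 4 libraries lay above the other 6 in 471 and below them in 424. Called genes were picked for such a difference, so the counts of 193 and 209 describe them and add no test. In bulk RNA, fewer cells of a type and less RNA per cell cannot be told apart, here and in every result that follows. A stricter count takes genes that passed against day 2 and against day 6 separately, in the same direction. There were 69 such peak genes (0.813%) and 82 such dip genes (0.966%), where day 6 against day 2 had called 316 genes (3.72%) in either direction. Of the 69 peak genes 3 also differed between days 6 and 2, all lower at day 6, and of the 82 dip genes 2 did. These shares are near the 3.72% of all tested genes, so they do not set the peak and dip genes apart. Among the 249 genes higher than the average 27 also differed between days 6 and 2, and among the 283 lower genes 39 did. A difference that was not detected does not show a return to the day 2 level. All day 4 values also lay above all 3 day 2 controls in 68 of the 69 and below them in 73 of the 82. These genes were picked for differing from hairpin libraries of the same day 2, so these counts are a description and no separate test. The share over all genes was not counted.

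**Figure D1:**
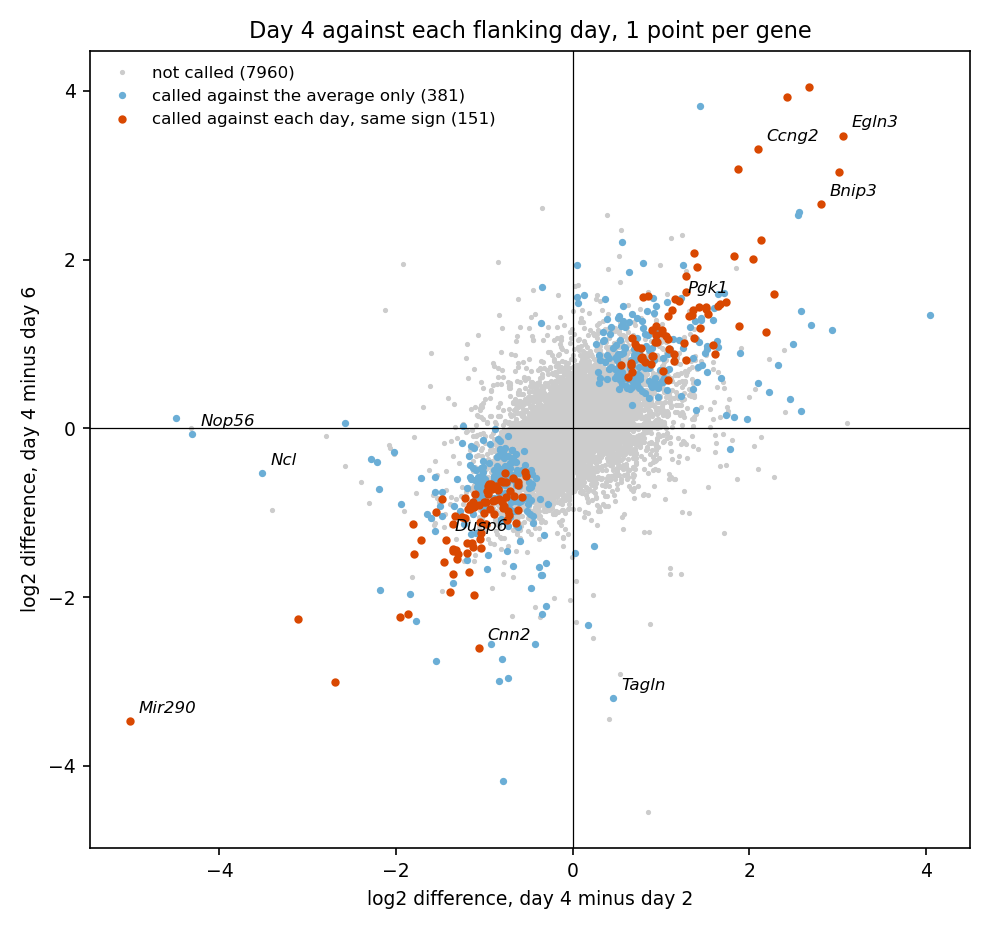
Each point is 1 of the 8492 tested genes, placed by its log2 difference between day 4 and day 2 (horizontal) and between day 4 and day 6 (vertical). The 151 genes called against each day in the same direction (69 higher, 82 lower) lie along the diagonal, from Mir290 at the lower left to Egln3 and Bnip3 at the upper right, while Nop56 lies near 0 and Ncl at -0.53 on the day 6 axis, and Tagln lies at 0.45 on the day 2 axis.

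These counts leaned on single libraries. The 249 fell to 82 without day 4 replicate 2, 129 without day 6 replicate 1, 144 without day 2 replicate 2, 144 without day 4 replicate 1, 150 without day 2 replicate 3 and 165 without day 2 replicate 1. The 283 fell to 113, 146, 161, 175 and 167 without day 4 replicate 2, day 6 replicate 1 and day 2 replicates 2, 3 and 1. The 69 became 31 without day 4 replicate 2, 43 without day 2 replicate 2 and 42 without day 2 replicate 3. The 82 became 24 without day 4 replicate 2, 35 without day 6 replicate 1, and 43, 38 and 38 without day 2 replicates 1, 2 and 3. With limma-voom on recovered reads, 58.9% of calls were higher (337 against 235), where the test on log2 values gave 46.8%. The 24 largest changes, named through the text, passed in every one of the 9 fits with a library left out and in all other settings tried.

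Genes of the low oxygen response outside glycolysis had the highest median contrast of the lists with at least 5 tested members. That ranking counts Egln3 and Bhlhe40, which could be tested only because they were high at day 4. Without them it does not hold, and the glycolysis list (median 0.88) stands above this one. Of 30 listed symbols 28 were in the table and 15 reached the filter and were tested. Of these 8 were higher and Tfrc, the transferrin receptor, was lower, with a median contrast of 0.98, and 5 of the 8 passed against each flank. Egln3, the prolyl hydroxylase PHD3 that acts on HIF alpha subunits, had 41.8, 39.9 and 38.9 normalized counts in the 3 day 4 libraries. It had 4.48, 2.27 and 5.70 at day 2 and 2.99, 2.34 and 2.84 at day 6. Every day 4 library stood far above all others, and the contrast was 3.27 ± 0.35 (SE; adjusted p 6.18e-05, 9.62-fold on the scale with 1 added, where changes of low genes come out too small). Values in parentheses below give the contrast with its standard error, the adjusted p and, where present, that fold. Because Egln3 reached 10 normalized counts in no library of day 2 or day 6, it passed the filter through day 4 alone, as did Bhlhe40, a transcriptional repressor that was also higher (2.56 ± 0.68, 0.0374). In all, 11 of the 249 higher genes did so, Pdgfra below among them. Likewise 22 of the 283 lower genes passed the filter through the flanks alone, among them Ctgf, Ebp, Myc, Nes, Thbs1 and Timp3 below. Genes of either kind had to differ in order to be tested.

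Bnip3, a mitochondrial protein that marks mitochondria for autophagy, had 91.9, 92.7 and 62.6 at day 4. The values were 13.4, 7.95 and 11.4 at day 2 and 14.1, 12.5 and 9.78 at day 6, and the control libraries had 9.58, 8.20 and 11.01. Day 4 did not overlap with either flank (2.74 ± 0.24, 1.28e-05, 6.67-fold). Ddit4 (REDD1), an inhibitor of the growth kinase complex mTORC1, had 102, 95.7 and 53.3 at day 4, with replicate 3 the lowest of the 3. Its day 2 values were 20.1, 13.6 and 19.9 and its day 6 values 15.8, 13.99 and 19.9, so that the lowest day 4 library was still above all 6 (2.18 ± 0.24, 7.15e-05, 4.53-fold). Vegfa, the vessel growth factor, had 46.95, 42.5 and 40.3 at day 4 and 16.8, 11.4 and 18.5 at day 2. Its day 6 libraries had 3.75, 5.46 and a value listed at 0. The contrast was 2.63 ± 0.46 (0.00332), but the 2 flanks differed in their part: it passed against day 6 (3.82, 0.000708) and not against day 2 (1.44, 0.118).

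The other higher members were more modest. Egln1, the main HIF prolyl hydroxylase PHD2, had a mean of 43.6 ± 7.41 at day 4 (SD, n = 3 here and below) against 12.6 ± 3.70 at day 2 and 15.3 ± 5.43 at day 6, an order of flanks kept wherever they are not named (1.62 ± 0.28, 0.00266). Ero1l, an oxidase of the endoplasmic reticulum, had 139 ± 10.8 against 67.2 ± 19.9 and 54.6 ± 5.69 (1.21 ± 0.18, 0.00119). Mxi1, an antagonist of MYC, was higher by 0.98 ± 0.27 (0.0408), a call lost without any of 8 of the 9 libraries (adjusted p up to 0.103). The call of Bhlhe40 was lost without any of 6 libraries (up to 0.192), and that of Tfrc (-0.41 ± 0.11, 0.0406) without any of 7 (up to 0.112). With 1 library left out the list kept 6 to 8 higher members. The 6 members that did not pass were Bnip3l (0.58), Pdk1 (0.21), Hmox1 (0.21), Ak4 (0.11), Kdm3a (-0.01) and Higd1a (-0.16).

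Windows at annotated starts of Egln3, Bnip3, Vegfa and Ddit4 are printed to show where the core letters of the HIF element lie. These 4 genes had the largest rises among members of the low oxygen, glycolysis and hydroxylase lists that matched the RefSeq table. They are RefSeq windows of GRCm38.p6, 250 bases before to 50 after an annotated start, read 5′ to 3′ along the gene's own strand, which is minus for all 4. Capitals mark ACGTG and GCGTG or their reverse complements CACGT and CACGC. The deposited values were made on another build, so no coordinate below comes from them.
Egln3, chr12:54203825-54204124: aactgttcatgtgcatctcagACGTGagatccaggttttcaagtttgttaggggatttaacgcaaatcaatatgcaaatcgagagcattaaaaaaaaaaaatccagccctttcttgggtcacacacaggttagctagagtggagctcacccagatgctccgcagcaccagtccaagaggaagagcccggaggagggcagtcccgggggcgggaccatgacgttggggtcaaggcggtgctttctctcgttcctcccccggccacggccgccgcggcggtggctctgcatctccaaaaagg
Bnip3, chr7:138909457-138909756: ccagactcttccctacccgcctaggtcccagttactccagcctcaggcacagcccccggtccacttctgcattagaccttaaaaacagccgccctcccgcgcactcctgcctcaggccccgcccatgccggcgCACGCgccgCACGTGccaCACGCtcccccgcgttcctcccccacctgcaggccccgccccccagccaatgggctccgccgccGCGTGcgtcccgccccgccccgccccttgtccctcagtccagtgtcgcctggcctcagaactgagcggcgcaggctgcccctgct
Vegfa, the first of its 2 annotated windows, chr17:46025114-46025413: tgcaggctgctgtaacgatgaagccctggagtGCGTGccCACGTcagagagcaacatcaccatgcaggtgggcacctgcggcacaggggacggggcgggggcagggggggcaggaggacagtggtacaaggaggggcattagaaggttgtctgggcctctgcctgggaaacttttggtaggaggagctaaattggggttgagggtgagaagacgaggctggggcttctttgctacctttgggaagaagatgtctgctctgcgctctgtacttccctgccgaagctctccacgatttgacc
Ddit4, chr10:59951721-59952020: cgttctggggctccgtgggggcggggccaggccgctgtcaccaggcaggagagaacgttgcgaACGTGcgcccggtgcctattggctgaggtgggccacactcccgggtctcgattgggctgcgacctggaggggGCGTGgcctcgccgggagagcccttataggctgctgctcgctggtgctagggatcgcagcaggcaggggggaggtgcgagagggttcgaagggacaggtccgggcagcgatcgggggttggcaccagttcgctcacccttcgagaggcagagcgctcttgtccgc

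Egln3 had 1 marked place, Bnip3 4, Vegfa 2 and Ddit4 2. The printed Vegfa window is the first by coordinate only. As the gene is on the minus strand, this window lies downstream of the other annotated start, inside the gene. Whether it acts as a promoter was not tested. The upstream window, chr17:46032328-46032627, had no marked place, so the letters marked for Vegfa do not lie before its upstream start. In Bnip3 a place is the palindrome CACGTG, which holds ACGTG on both strands. Of 25 windows of the higher members of the 3 lists (18 of 20 genes matched), 16 held ACGTG on either strand (64%). The printed Vegfa window is among the 16. It was in 12 of 27 windows of the other tested members (44.4%; 13 of 16 genes matched), 27.4% of the windows of all tested genes (6184 of 8492 matched) and 19.6% of all 32851 windows in the table. Counted by gene, so that a gene with several windows counts once, the letters were found for 14 of 18 higher members, 10 of 13 others and 31.5% of tested genes. Vegfa counts there through its printed window only. GCGTG was in 44% of the windows of higher members and 53.1% of those of all tested genes, and in 74.1% of those of the other tested members. A match describes letters and not a bound site.

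The genes of the sensing machinery were not called. None of 9 tested members passed with limma (4 had an unadjusted p under 0.05, and limma-voom called 1 lower), and the median contrast was 0.10. As 2.93% of all tested genes were higher and 3.33% lower, no call among 9 does not set the list apart. Hif1a, a HIF alpha subunit, had a contrast of 0.10, and its partner Arnt had 0.64 ± 0.30. Of the VHL ligase, the substrate receptor Vhl had 0.27, the scaffold Cul2 0.19 and Rbx1 0.13, while the elongin subunits Tceb2 (-1.70 ± 0.57, 0.0836) and Tceb1 (-0.55 ± 0.20, 0.102) were on the negative side. Hif1an, which hydroxylates an asparagine of HIF alpha, had -0.16. Egln2, the third prolyl hydroxylase, had a negative contrast where those of Egln1 and Egln3 were positive, without passing, with 22.8 ± 9.88 normalized counts at day 4 against 48.2 ± 9.88 at day 2 and 37.97 ± 10.8 at day 6 (-0.95 ± 0.27, 0.0505). Transcript levels do not measure HIF protein, which was not assayed.

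**Figure D2:**
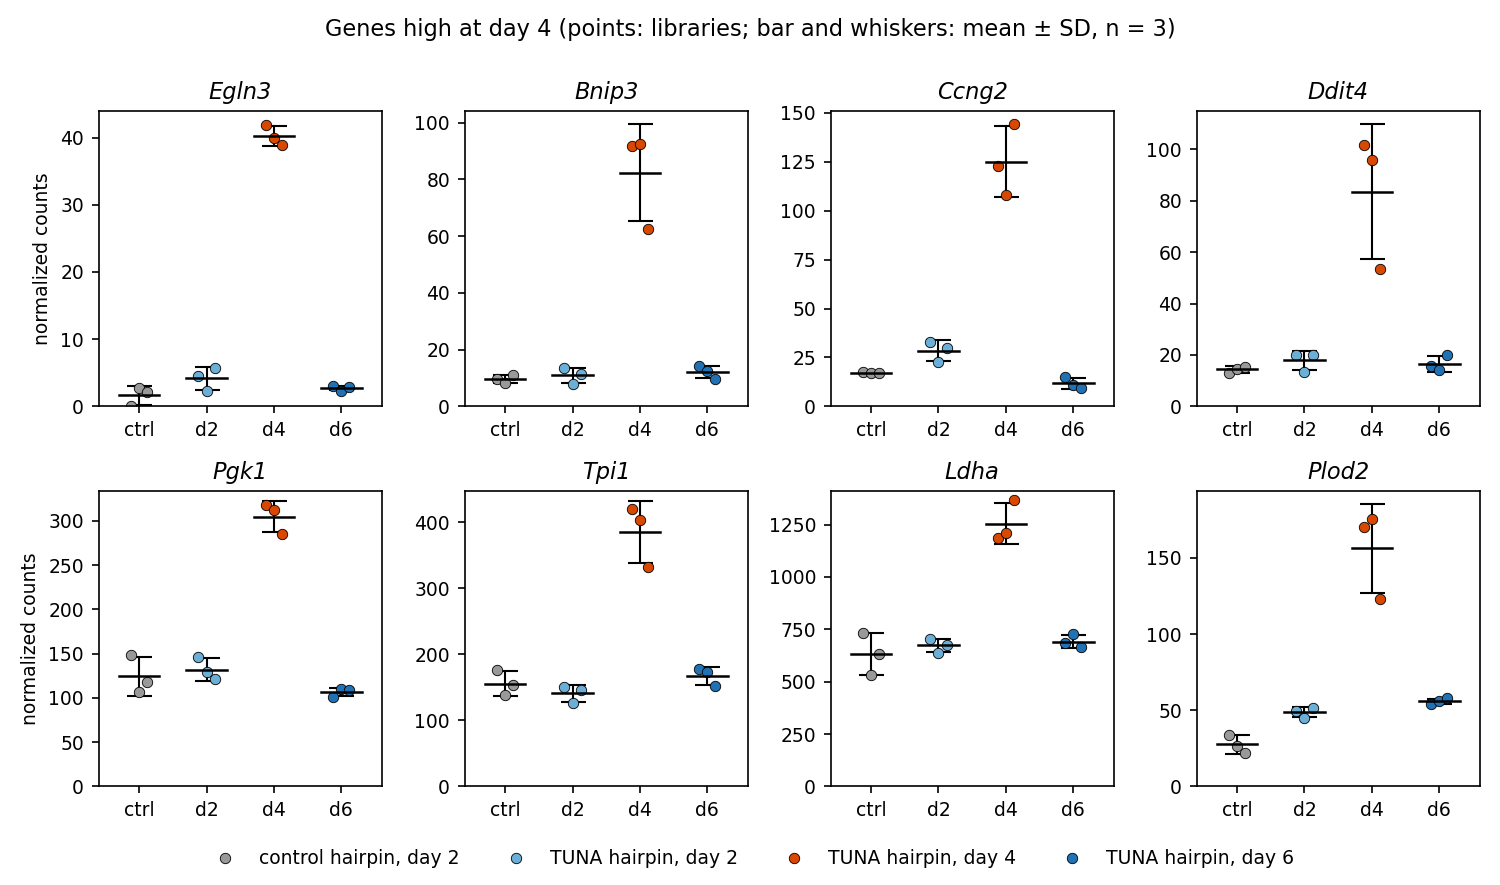
Normalized counts of 8 genes in each library (points; bar and whiskers are mean ± SD, n = 3) for the control hairpin at day 2 and the TUNA hairpin at days 2, 4 and 6, on linear axes from 0. In every panel all 3 day 4 libraries lie above all 9 others, as for Egln3 (41.8, 39.9 and 38.9 at day 4 and at most 5.70 in the other hairpin libraries).

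Glycolysis enzymes, with the transporters that bring glucose in and lactate out, made up the broadest block of rises among the lists related to oxygen. Of 20 listed symbols 17 were tested and 10 were higher, with a median contrast of 0.88. In 13 of the 17 the day 4 libraries lay above all 6 flanking ones, where 471 of all 8492 genes tested did so. Summed over the 17 genes, day 4 libraries had 14967, 15733 and 14928 normalized counts, against 12029, 11571 and 11561 at day 2 and 10571, 9993 and 8815 at day 6. Of the 10 genes, 7 passed against each flank, namely Pfkl, Pfkp, Aldoa, Tpi1, Pgk1, Ldha and Slc16a3.

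Slc16a3 (MCT4), which exports lactate, was the steepest. It had 76.1, 86.5 and 81.7 at day 4, 16.8, 23.8 and 17.1 at day 2 and 20.3, 14.03 and 25.7 at day 6. The contrast was 2.03 ± 0.22 (6.18e-05, 4.07-fold), with no overlap. Pfkp, a phosphofructokinase, which commits sugar to glycolysis, had 138, 141 and 134 at day 4 against 49.4, 46.6 and 57.9 at day 2 and 35.8, 28.6 and 44.5 at day 6 (1.66 ± 0.17, 3.89e-05). The day 2 controls of Pfkp lay between day 4 and the flanks, with 132, 102 and 75.9. Pfkl, another subunit of that enzyme, had 70.7 ± 11.7 against 34.2 ± 3.17 and 30.9 ± 4.42 (1.09 ± 0.18, 0.0023).

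Among the later enzymes, Tpi1, triose phosphate isomerase, had 419, 403 and 331 at day 4. The values were 151, 126 and 145 at day 2 and 177, 173 and 152 at day 6 (1.32 ± 0.13, 3.89e-05, 2.49-fold). Pgk1, the first enzyme of the pathway to yield ATP, had 318, 312 and 285 at day 4. It had 146, 129 and 121 at day 2 and 101, 110.0 and 109 at day 6 (1.36 ± 0.13, 2.27e-05, 2.56-fold). For both enzymes the 3 day 4 libraries stood above all others. Aldoa, aldolase, had 354 ± 21.9 against 196 ± 23.7 and 121 ± 30.4 (1.21 ± 0.16, 0.000399). Ldha, which turns pyruvate into lactate, had 1188, 1209 and 1367 at day 4, 704, 638 and 677 at day 2 and 683, 728 and 663 at day 6, a smaller rise at a higher level (0.88 ± 0.12, 0.000399, 1.83-fold). Tpi1 and Aldoa have near-identical copies in the genome, and the sources used here do not give how reads were shared with them. The related rows Tpi-rs10 (1.55 ± 0.28, 0.00381) and Aldoart2 (1.18 ± 0.17, 0.000834) are also among the 69 peak genes. Whether these rows hold the same reads as Tpi1 and Aldoa was not tested.

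The 3 other higher members passed against the average and not against each flank. The glucose transporter Slc2a1 had 839 ± 17.9 against 486 ± 23.8 and 618 ± 68.6 (0.62 ± 0.12, 0.00602). Gpi1, the isomerase of the second step, had a contrast of 1.00 ± 0.22 (0.0157) and lost its call without day 4 replicate 1 (0.0729) or day 4 replicate 2 (0.0609). Pkm2, pyruvate kinase, had 0.57 ± 0.16 (0.0416) and lost it without any of 6 libraries (up to 0.159). The 7 members that did not pass were Aldoc (1.88 ± 0.55, 0.0532), Pgam1 (0.39), Slc2a3 (0.39), Pfkm (0.31), Gapdh (0.31), enolase Eno1 (0.23) and hexokinase Hk2 (-0.14). With 1 library left out 8 to 10 members were higher.

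No subunit gene of oxidative phosphorylation was called by limma: none of 61 tested passed (5 had an unadjusted p under 0.05, and limma-voom called 1 higher), and their median was 0.04. Of all tested genes 2.93% were higher and 3.33% lower. The difference between this list and glycolysis was not tested.

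Both collagen-modifying hydroxylases that passed were peak genes. Like the HIF hydroxylases, enzymes of this family use oxygen and iron. Plod2, which hydroxylates lysine in collagen, had 171, 176 and 123 at day 4, 49.5, 44.9 and 51.3 at day 2 and 54.3, 55.8 and 57.7 at day 6 (1.55 ± 0.16, 3.89e-05, 2.93-fold). P4ha1, the catalytic subunit of collagen prolyl hydroxylase, had 179, 161 and 155 against 62.5, 58.9 and 82.4 and 61.04, 57.4 and 42.4 (1.45 ± 0.17, 9.57e-05, 2.73-fold). Neither overlapped with its flanks, and both passed in every fit with a library left out. The other tested members were P4hb (-0.34 ± 0.18) and Lepre1 (-0.80 ± 0.33). Over the 3 lists, 20 of 36 tested members were higher and 14 passed against each flank, so these members made up 14 of the 69 peak genes. Histone demethylases, which also use oxygen, were split: of 16 tested, Jhdm1d was higher (1.01 ± 0.20) and Kdm2b (-0.85 ± 0.20) and Kdm5c (-0.57 ± 0.15) were lower, with a median of 0.14. The call of Kdm2b was lost without day 4 replicate 2 (0.0858) and that of Kdm5c without any of 6 libraries (up to 0.122).

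Of 12 tested FOXO-linked genes 3 were higher, with a median of 0.39. Ccng2, the unconventional cyclin G2, known as a target of FOXO factors and linked to cell cycle arrest, had the largest rise among genes whose day 4 libraries did not overlap with the flanks and whose mean over the 9 libraries was 50 or more, the rule by which the 12 largest rises and falls were picked. It had 123, 108 and 144 normalized counts at day 4, 32.9, 22.6 and 29.9 at day 2 and 15.05, 11.1 and 9.29 at day 6, with 17.4, 16.9 and 17.1 in the controls. Day 4 was above all 9 other libraries, and day 6 was below day 2 (2.71 ± 0.21, 3.32e-06, 6.52-fold). Txnip, an inhibitor of thioredoxin and of glucose uptake, had 358, 348 and 288 at day 4 against 139, 163 and 139 and 103, 132 and 106 (1.35 ± 0.14, 4.05e-05, 2.55-fold). With Cdkn1b, the inhibitor p27 (0.62 ± 0.18, 0.0499), these were the 3 higher genes. The call of Cdkn1b was lost without any of 8 libraries (up to 0.169). Among 16 tested G1 genes, Ccnd1, cyclin D1, was lower: it had 49.4, 34.2 and 40.3 at day 4, 90.6, 75.8 and 79.8 at day 2 and 93.3, 102 and 78.6 at day 6, with no overlap (-1.06 ± 0.17, 0.00157, 2.08-fold lower).

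Of 25 tested p53 targets 3 were higher and 1 lower, with a median of 0.26. The 3 became 2 to 5 with 1 library left out, with 5 without day 4 replicate 3 or day 6 replicate 3. In the other settings at the same threshold they became 3 to 8. Ddit4 is 1 of the 3, and is also a low oxygen gene, and the lower one was Gtse1 (-0.62 ± 0.17, lost without any of 6 libraries, up to 0.175). Pmaip1 (Noxa), a BH3-only protein that promotes apoptosis, had 124, 158 and 93.9 at day 4, 41.8, 41.7 and 34.9 at day 2 and 86.4, 64.6 and 51.1 at day 6, and day 6 stayed above day 2 (1.25 ± 0.20, 0.00162). Polk, a translesion polymerase, had 0.70 ± 0.18 (0.0302) and lost its call without any of 5 libraries (up to 0.134). Of 13 tested members of the BCL2 family Pmaip1 and Bnip3 were higher, and the survival gene Bcl2l1 (BCL-xL) was lower, with 35.3 ± 4.49 against 72.7 ± 15.9 and 65.2 ± 8.72 (-0.94 ± 0.18, 0.00602), as was the pore former Bak1 (-0.83 ± 0.23, 0.0455), whose call was lost without any of 8 libraries (up to 0.203). Other stress programmes are set beside all tested genes, of which 2.93% were higher and 3.33% lower. Of 20 tested ATF4 and amino acid genes, Slc7a3, an arginine transporter, was lower (-0.71 ± 0.17), and of 17 unfolded protein and heat shock genes Hsph1 (-0.74 ± 0.18), Hspd1 (-0.54 ± 0.13) and Calr (-0.52 ± 0.12) were lower, with medians of -0.04 and -0.22. Of 21 autophagy and lysosome genes, Ctsl (0.81 ± 0.17) and Lamp2 (0.73 ± 0.20) were higher. Each of these 6 calls was lost without 1 or more libraries: Ctsl without day 4 replicate 2 (0.0882), Hsph1 without 3 (up to 0.0853), Calr without 5 (up to 0.0729), Slc7a3 without 5 (up to 0.14), Hspd1 without 6 (up to 0.136) and Lamp2 without 6 (up to 0.135).

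The other largest rises belonged to no list. G2e3, a ubiquitin ligase of the cell cycle, had 451, 509.6 and 482 at day 4, 146, 155 and 149.8 at day 2 and 165, 174 and 176 at day 6, so that the groups lay far apart (1.57 ± 0.12, 3.32e-06). Rnf19a, also a ubiquitin ligase, had 105 ± 12.7 against 38.4 ± 3.98 and 38.4 ± 7.19 (1.43 ± 0.17). Cdk8, a kinase of the Mediator complex, had 1509, 1088 and 558 at day 4, a wide spread whose lowest library was still above the 501, 375 and 334 of day 2 and the 283, 322 and 235 of day 6 (1.54 ± 0.24, 0.00136). Dusp9, a phosphatase of ERK, had 159.9 ± 25.7 against 52.1 ± 6.56 and 79.4 ± 5.72 (1.29 ± 0.15, 0.000136), and BC030307 had 113 ± 12.01 against 44.8 ± 5.11 and 45.9 ± 15.6 (1.33 ± 0.19).

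The largest fall by the same rule was that of Mir290, the row of a microRNA gene of the miR-290 cluster, whose products are known to promote the rapid cell cycle of embryonic stem cells. Its mature RNAs are printed with those that share the seed of the first, to show which targeting sequence the gene carries. The sequences are RefSeq's, with capitals for the seed, bases 2 to 8 from the 5′ end. Mir290 lies on chromosome 7 of GRCm38.p6, plus strand, with miR-290a-5p at chr7:3218639-3218660 and miR-290a-3p at chr7:3218674-3218697.
miR-290a-5p: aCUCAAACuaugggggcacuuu
miR-292a-5p: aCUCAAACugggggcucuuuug
miR-293-5p: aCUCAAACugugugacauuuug
miR-290a-3p: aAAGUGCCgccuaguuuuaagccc

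The first 3 share the seed CUCAAAC, and the 3p arm has AAGUGCC. Close to the latter are AAGUGCU, the seed of miR-291a-3p, miR-294-3p and miR-295-3p, and AAGUGCA, that of miR-291b-3p. The known role of the cluster is not assigned here to either arm. Mir290 had 2.51, 2.77 and 23.9 normalized counts at day 4, against 221, 199.8 and 246 at day 2 and 33.3, 92.5 and 139 at day 6. The controls had 154, 133 and 177. All 3 day 4 libraries lay below all 9 others, though replicate 3 was well above the other 2 and the day 6 libraries were spread widely. The contrast was -4.24 ± 0.51 (0.000166), from -5.17 to -3.75 with 1 library left out. The rows Mir291a, Mir291b, Mir292, Mir293, Mir294 and Mir295 of the same cluster were listed at 0 in every library, and the sources used here do not give which form of the RNA the Mir290 row counts. None of the other 6 tested members of the microRNA list passed (limma-voom called no further member either; 2 of all 7 had an unadjusted p under 0.05), and Drosha, the nuclear processing enzyme, had 0.35 ± 0.26.

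Feedback inhibitors and targets of ERK signalling were among the falls of day 4. Of 13 tested, 4 were lower and the others did not pass, with a median of -0.53 (3 to 4 lower with 1 library left out). Dusp6, a phosphatase of ERK that ERK itself induces, had 89.05, 121 and 132 at day 4, 293, 327 and 299 at day 2 and 299.5, 325 and 230.2 at day 6 (-1.38 ± 0.15, 7.15e-05, 2.6-fold lower). Dusp4, a nuclear phosphatase of the same kind, had 11.7, 12.2 and 25.7 against 38.1, 48.8 and 46.5 and 42.4, 51.7 and 51.8 (-1.52 ± 0.24, 0.00162, 2.87-fold lower). The transcription factor gene Myc had 5.21, 6.84 and 7.33 at day 4, 12.3, 18.2 and 17.1 at day 2 and 21.02, 18.7 and 31.3 at day 6 (-1.44 ± 0.28, 0.00707, 2.71-fold lower). None of the 3 overlapped with a flank, and all passed against each. Spry4, a feedback inhibitor, was lower against the average (-1.01 ± 0.20, 0.00821), through a high day 6 (-0.38 against day 2, 0.355), and lost its call without day 4 replicate 2 (0.0702). Dusp9, described above, moved the other way from Dusp6 and Dusp4. The ERK ligand gene Fgf4 had 186, 185 and 232 at day 4, 225, 212 and 219 at day 2 and 109, 95.9 and 101 at day 6: day 4 overlapped with day 2 and lay above every library of day 6 (0.42 ± 0.13, 0.0691 for the contrast).

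**Figure D3:**
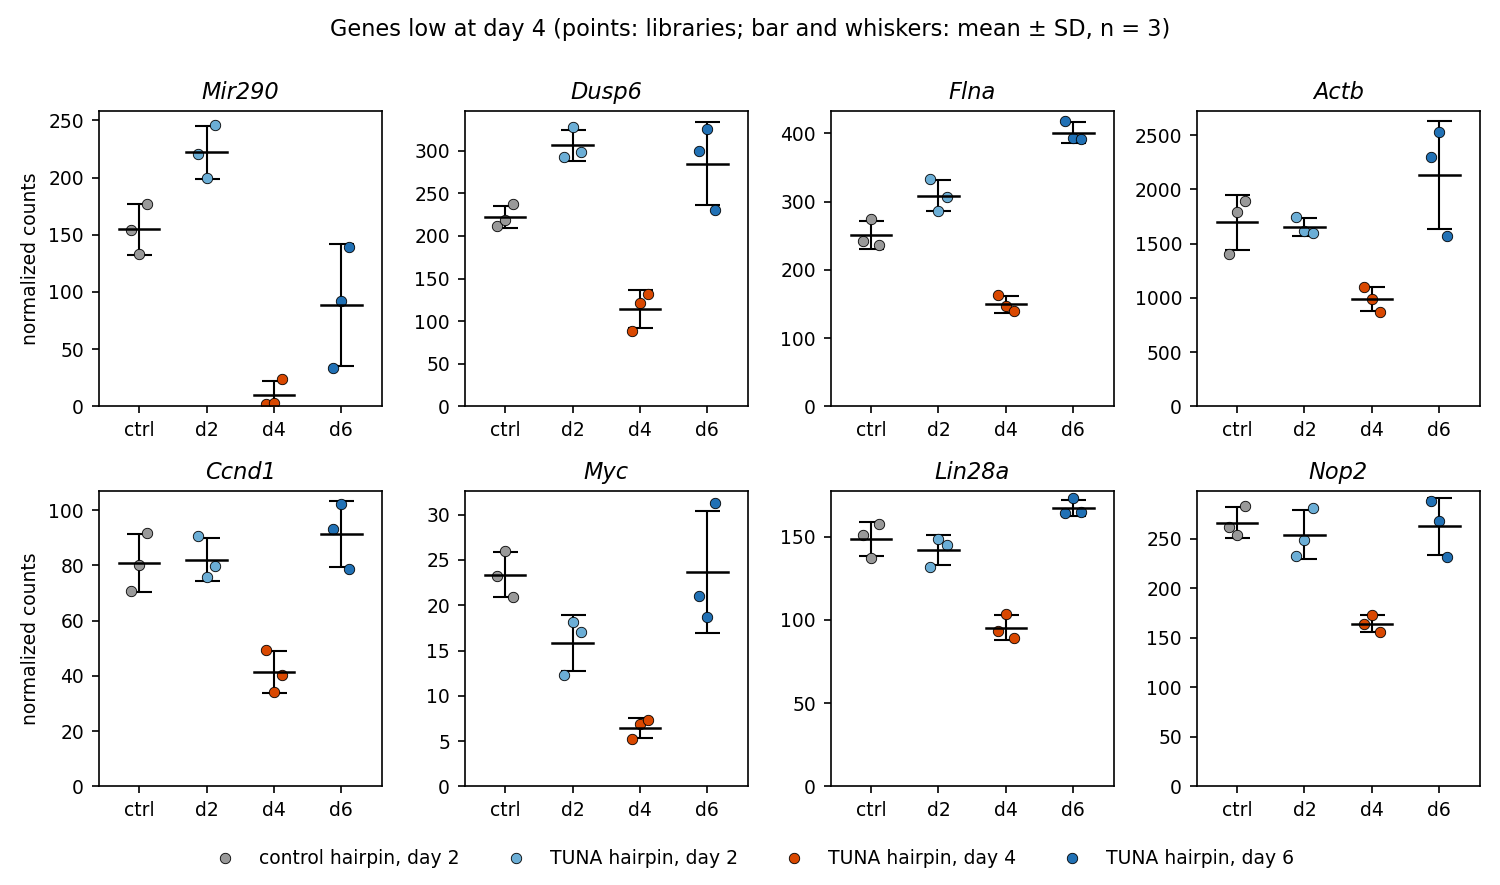
Normalized counts of 8 genes in each library (points; bar and whiskers are mean ± SD, n = 3) for the control hairpin at day 2 and the TUNA hairpin at days 2, 4 and 6, on linear axes from 0. In every panel the 3 day 4 libraries lie below all 9 others, as for Dusp6 (89.05, 121 and 132 at day 4), and Flna and Lin28a are highest at day 6.

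Actin and contractile genes had the lowest median of the lists with at least 5 tested members. Of 28 tested, 12 were lower and the others did not pass, with a median of -0.90 (10 to 14 lower with 1 library left out). Summed over the 28 genes, day 4 libraries had 2883, 2837 and 2490 normalized counts, day 2 libraries 4041, 4079 and 4222 and day 6 libraries 6366, 6462 and 6190. Part of this contrast was a rise at day 6: 12 of the 28 were called higher at day 6 than at day 2, so the lower calls at day 4 were of 2 kinds. The list of fibroblast and feeder genes also summed highest at day 6 (296 to 349.6 normalized counts, against 213 to 247 at day 4 and 177 to 200.3 at day 2). Of its 21 genes 9 were at 0 in all 9 libraries. The defining markers Col1a1, Col1a2, Col3a1, Dcn and Lum were at 0 throughout. Thy1 was lower at day 6 (at most 1.56) than at day 2 (2.85 to 4.48). The part of such cells in this result was not tested.

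In the first kind day 4 was below day 2 as well. Flna, filamin A, which crosslinks actin, had 164, 146 and 139 at day 4, 333, 287 and 307 at day 2 and 419, 393 and 392 at day 6 (-1.23 ± 0.12, 3.31e-05, 2.34-fold lower). Actb, cytoplasmic beta actin, had 1097, 994 and 873 against 1750.1, 1615 and 1595 and 2296, 2532 and 1574 (-0.92 ± 0.15, 0.0023). Actg1, gamma actin, had 269.5, 328 and 116, with replicate 3 far below the other 2, against 517, 534 and 629 and 682, 523 and 1056 (-1.54 ± 0.27, 0.00307). Cnn2, calponin 2, had 13.3, 10.1 and 16.4 at day 4, 26.7, 24.97 and 33.8 at day 2 and 77.1, 83.2 and 93.2 at day 6, a dip followed by a rise above day 2 (-1.83 ± 0.20, 7.15e-05). Vcl (vinculin, -0.88 ± 0.15), Amotl2 (-0.99 ± 0.17) and Tpm3 (-0.84 ± 0.17) completed the 7 that passed against each flank, and Tpm3 lost its call against the average without day 4 replicate 2 (0.0531). Wdr1, a cofactor of actin disassembly outside the list, had 95.6, 111 and 87.8 against 224, 213 and 293 and 252, 297 and 283 (-1.39 ± 0.14, 3.94e-05).

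In the second kind day 4 passed against day 6 and not against day 2. Tagln, transgelin, had 12.96, 22.8 and 12.1 at day 4 and 5.54, 21.2 and 10.7 at day 2, which overlap, and 146, 158 and 144 at day 6 (-1.37 ± 0.31, 0.0177, with 0.45 against day 2). Tpm1, a tropomyosin, had 66.95, 82.8 and 135, 111, 111 and 149 and 473, 489.8 and 673 in the same order (-1.49 ± 0.20, 0.000455, with -0.43 against day 2). Ctgf, a secreted matrix factor, had -1.84 ± 0.38, Lpp -1.05 ± 0.25 and Myl9 -1.74 ± 0.42, none of them passing against day 2. The calls of Tagln (without day 4 replicate 1, 0.0634), Lpp (without any of 4 libraries, up to 0.114) and Myl9 (without any of 4, up to 0.0834) were lost with a library left out.

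Genes for the making of ribosomes leaned low. Of 36 tested, 12 were lower and 35 had a negative contrast, with a median of -0.47, where the list of 76 cytosolic ribosomal protein genes had a median of 0.08 and 3 lower members, Rps12, Rpl24 and Rps24. The calls of Rpl24 (-0.75 ± 0.19) and Rps24 (-0.56 ± 0.16) were lost without any of 6 (up to 0.156) and any of 8 libraries (up to 0.134). The count of 12 became 4 without day 4 replicate 2, 6 without day 2 replicate 2, and 7 without day 2 replicate 1, day 2 replicate 3 or day 6 replicate 1. Nop2, a ribosomal RNA methyltransferase, had 164, 173 and 156 at day 4, 233, 249 and 281 at day 2 and 288, 268 and 232 at day 6 (-0.65 ± 0.13, 0.00726). Polr1b, the second largest subunit of RNA polymerase I, had a mean of 47.4 ± 17.6 at day 4 against 100.1 ± 11.97 and 88.3 ± 10.6, without overlap (-1.03 ± 0.20, 0.00607), and lost its call without day 4 replicate 2 (0.0544). With Rrp1b (-0.94 ± 0.20), which lost its call without the same library (0.0882), these were the 3 that passed against each flank.

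Ncl and Nop56 had the largest contrasts of that list, and both were carried by a high day 2. Ncl, nucleolin, had 3866, 3155 and 2921 at day 2 but 237, 276 and 359.7 at day 4 and 384, 362 and 515 at day 6 (-2.03 ± 0.16, 3.32e-06), with -0.53 against day 6 (0.109). Nop56, a core protein of small nucleolar ribonucleoproteins, had 1568, 3552 and 3073, 115, 134 and 139.8 and 124, 124 and 162 in the same order, and -0.07 against day 6 (0.91). Both genes hold small nucleolar RNAs in their introns, as do Rps12 (-2.19 ± 0.17, with 0.12 against day 6), Snhg1 (-1.33 ± 0.22, -0.37) and Taf1d, and reads of host and guest cannot be told apart here. Taf1d, also a subunit of the polymerase I factor SL1, was a dip of day 4: it had 622, 541 and 550.0, against 1536, 2142 and 2030.5 at day 2 and 1085, 1894 and 1419.6 at day 6 (-1.52 ± 0.17, 7.15e-05, 2.87-fold lower).

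Histone genes and small nucleolar RNAs leaned high. Of 70 tested histone genes 64 had a positive contrast and 10 were higher (median 0.53), and of 43 small nucleolar RNAs 42 were positive and 9 higher (median 0.53). Summed over the 70 histone genes, day 4 replicates 1, 2 and 3 had 25801, 21288 and 16432 normalized counts, day 2 libraries 15343, 13408 and 11968 and day 6 libraries 17791, 22216 and 12236. Without Rnu3a, the small nucleolar list summed to 155384, 138796 and 93710 at day 4, 111065, 98607 and 84932 at day 2 and 93328, 100310 and 55839 at day 6. Both sums were highest in day 4 replicate 1 and lowest in replicate 3, the reverse of the order of the share of reads in the 3 dominant rows (64.2%, 72.9% and 76.9%). The part of that share in the result was not tested. Both counts depended on single libraries. The 10 histone genes became 2 and 3 without day 4 replicates 2 and 1, 4 without day 2 replicate 2 or 3, 27 without day 4 replicate 3 and 23 without day 6 replicate 2. None of the small nucleolar RNAs passed with limma without day 2 replicate 3, day 4 replicate 1 or day 4 replicate 2, 1 passed without day 2 replicate 2 or day 6 replicate 1, and 17 passed without day 4 replicate 3. The linker histone H1f0, which lies outside the replication-dependent clusters, was the one histone gene that passed against each flank: it had 68.4, 59.3 and 68.4 at day 4, 20.2, 19.3 and 28.5 at day 2 and 24.02, 21.8 and 25.6 at day 6, with no overlap, and passed in every fit with a library left out (1.46 ± 0.19, 0.000399). Its controls, with 45.7, 56.1 and 41.9, were above both flanks too. Hist1h1c, a linker histone of the cluster, had 466, 298 and 192 at day 4 against 147, 152 and 139.6 and 188, 175 and 140.3 (0.93 ± 0.21, 0.0159), and lost its call without day 4 replicate 1 (0.0729) or 2 (0.0799).

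Genes of DNA replication had a median of -0.09, with Cdc6 (-0.61 ± 0.16), Fen1 (-0.54 ± 0.14) and Ccne1 (-0.48 ± 0.13) lower among 44 (calls lost without 6, 7 and 7 of the 9 libraries in turn, up to 0.181, 0.146 and 0.18). Genes of mitosis had a median of 0.10 over 32, with Bub1 and Hmmr higher and Cdc20 lower. Bub1, a checkpoint kinase, passed against each flank, with 186, 178 and 177 at day 4 against 112, 114 and 113 and 104, 111 and 105 (0.71 ± 0.12, 0.00328). The calls of Hmmr (0.48 ± 0.13) and Cdc20 (-0.62 ± 0.18) were lost without any of 7 (up to 0.137) and any of 8 libraries (up to 0.13).

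Pluripotency genes were split. Of 11 tested core factors, Nanog and Tdgf1 were higher, Lin28a was lower and the median was -0.28. Lin28a, an RNA-binding protein that blocks let-7 maturation, had 93.1, 104 and 89.2 at day 4, 132, 149 and 145 at day 2 and 164, 173 and 165 at day 6 (-0.69 ± 0.13, 0.00508), below both flanks without overlap. Nanog had 483, 406 and 345 at day 4, 287, 295 and 327 at day 2 and 279, 271 and 198 at day 6 (0.58 ± 0.15, 0.0315). Its day 4 libraries were above both flanks but overlapped with the controls, which had 429.6, 465 and 551, and the call was lost without any of 5 libraries (up to 0.126). Tdgf1, a Nodal co-receptor, had 0.58 ± 0.13 (0.0156) and lost its call without day 4 replicate 2 (0.0743). Pou5f1 had 527, 531 and 429.9 against 644, 698 and 673 and 619.7, 679.8 and 518, which overlap (-0.36 ± 0.13, 0.101), and Sox2 had 558, 695 and 596 against 533, 570.2 and 609 and 391, 359 and 375 (0.41 ± 0.12, 0.0552). Of 19 tested naive pluripotency genes Gbx2 (-1.34 ± 0.29, 0.0147) and the nuclear receptor Nr0b1 (-0.95 ± 0.21, 0.0164) were lower, with a median of 0.15. Both calls were lost without day 4 replicate 2 (0.0854 and 0.0828), and that of Gbx2 without day 4 replicate 1 too (0.0666).

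Of 12 tested genes that respond to Nodal, BMP and TGF-beta, Skil, Id2 and Id3 were higher (median 0.48). Skil, a SMAD corepressor, had 533, 583 and 563 at day 4, 253, 263 and 276 at day 2 and 371, 418 and 340.2 at day 6 (0.83 ± 0.12, 0.000839) and was a peak gene. Id2 had 27.9, 20.5 and 13.4 at day 4 and 2.24, 2.27 and 2.85 at day 2, and its day 6 values of 17.2, 18.7 and 15.2 overlapped with day 4. Id3 likewise had 60.7, 52.9 and 51.8 at day 6 against 48.8, 40.1 and 51.1 at day 4, so that these inhibitors of DNA binding were raised at day 4 and stayed so. Their calls (1.40 ± 0.32 and 0.77 ± 0.18) were each lost without any of 3 libraries (up to 0.115 and 0.0834).

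Of the other large falls, Ddx58 (RIG-I), a sensor of viral RNA, had 22.02, 34.3 and 50.2 at day 4 against 62.7, 84.2 and 66.4 and 82.9, 79.5 and 93.02 (-1.18 ± 0.22, 0.00469), and the other 4 tested interferon genes did not pass. Dapk3, a kinase of cell death and contractility, had 28.3 ± 9.73 against 71.3 ± 5.39 and 76.1 ± 16.1 (-1.40 ± 0.21). Bcam, a laminin receptor, had 28.95 ± 8.70 against 73.6 ± 9.28 and 64.8 ± 20.4 (-1.25 ± 0.23), Med22, a Mediator subunit, 31.3 ± 8.42 against 81.8 ± 21.3 and 86.7 ± 18.6 (-1.41 ± 0.21), and B130055M24Rik 153 ± 31.1 against 381 ± 29.4 and 312 ± 42.5 (-1.18 ± 0.15). Of the proteins reported to bind TUNA besides nucleolin, Ptbp1 was lower (-0.76 ± 0.21, 0.046), a call lost without any of 7 libraries (up to 0.208), and Hnrnpk had 0.22 ± 0.16 (0.444).

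Markers of other cell types were followed as a check. Summed over their lists, trophoblast genes had 39.03 to 45.7 normalized counts at day 4 against 34.5 to 43.2 at day 2 and 138 to 200.1 at day 6. Endoderm genes had 774 to 802 against 852 to 949.7 and 858 to 1295, mesoderm genes 3.67 to 5.21 against 2.85 to 6.93 and 1.501 to 14.8, and neural and primed genes 139 to 163 against 199.5 to 245 and 192 to 198.5. Cubn, an endocytic receptor of endoderm, had 21.7 ± 2.36 at day 4 against 1.97 ± 0.473 and 9.59 ± 4.14 (2.05 ± 0.36, 0.00354), and Gata6, a master factor of that lineage, had a range of 8.47 to 13.7 in day 4 libraries, against 2.27 to 7.84 in those of day 2 and 1.501 to 4.65 in those of day 6. Of 11 tested endoderm genes Apoe (1.02 ± 0.24) was the other higher one, and Sparc (-0.64 ± 0.17) and Lrp2 (-0.95 ± 0.23) were lower, calls lost without any of 3, 8 and 5 libraries (up to 0.103, 0.116 and 0.126). Of 5 tested fibroblast genes, Pdgfra was higher at day 4 (1.99 ± 0.55), while Vim (-0.79 ± 0.18), Timp3 (-1.77 ± 0.45) and Thbs1 (-2.48 ± 0.62) were lower through a high day 6, with -0.32, -0.80 and -0.79 against day 2. Pdgfra, Timp3 and Thbs1 lost their calls without any of 6 libraries (up to 0.166, 0.089 and 0.0801), and Vim without day 4 replicate 2 (0.101) or day 6 replicate 1 (0.0537). Krt18, a keratin of trophoblast, was lower in the same way (-1.08 ± 0.21, with 0.17 against day 2) and lost its call without day 4 replicate 2 (0.0583). Of 6 tested primed and neural genes Nes, of neural progenitors, was lower, having passed the filter through day 6 alone: it had 3.84, 3.42 and 1.22 at day 4 against 6.72, 5.68 and 4.27 and 30.8, 33.5 and 20.9 (-1.92 ± 0.38, 0.00745). Genes of the 2-cell-like state summed to at most 2.05 in day 2 libraries, to between 50.5 and 64.3 in those of day 4 and to between 18.8 and 51.2 in those of day 6. Of these, Zscan4c had 24.1, 34.5 and 31.8 at day 4 and 28.5, 6.90 and 6.58 at day 6, while at day 2 it had 1.12, 2.05 and a value listed at 0 (2.70 ± 0.49, 0.00399). The part of any of these cells in the other results was not tested.

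The calls of the remaining lists are given next, where 2.93% of all tested genes were higher and 3.33% lower. Of 20 tested host genes of small nucleolar RNAs, Snhg11 was higher (0.95 ± 0.18, 0.00585), a call lost without day 4 replicate 2 (0.0534), and 5 were lower, namely Ncl, Nop56, Rps12, Rps24 and Snhg1, given above. Of 21 tested genes of cholesterol synthesis Ebp, a sterol isomerase, was lower (-1.33 ± 0.28, 0.00991), and of 7 integrin subunits Itgav was higher (0.73 ± 0.14, 0.00633) and Itga3 lower (-1.23 ± 0.27, 0.0154). The nuclear noncoding RNA Malat1 had 4377, 5099.7 and 4904 at day 4, 2403, 2619.9 and 2449 at day 2 and 3302, 2813 and 3914 at day 6, above both without overlap (0.74 ± 0.14, 0.00633). The calls of Ebp, Itgav, Itga3 and Malat1 were lost without day 4 replicate 2 (0.0622, 0.0521, 0.0702 and 0.0609). No Polycomb gene of 19 passed with limma (2 had an unadjusted p under 0.05, and limma-voom called none).

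**Figure D4:**
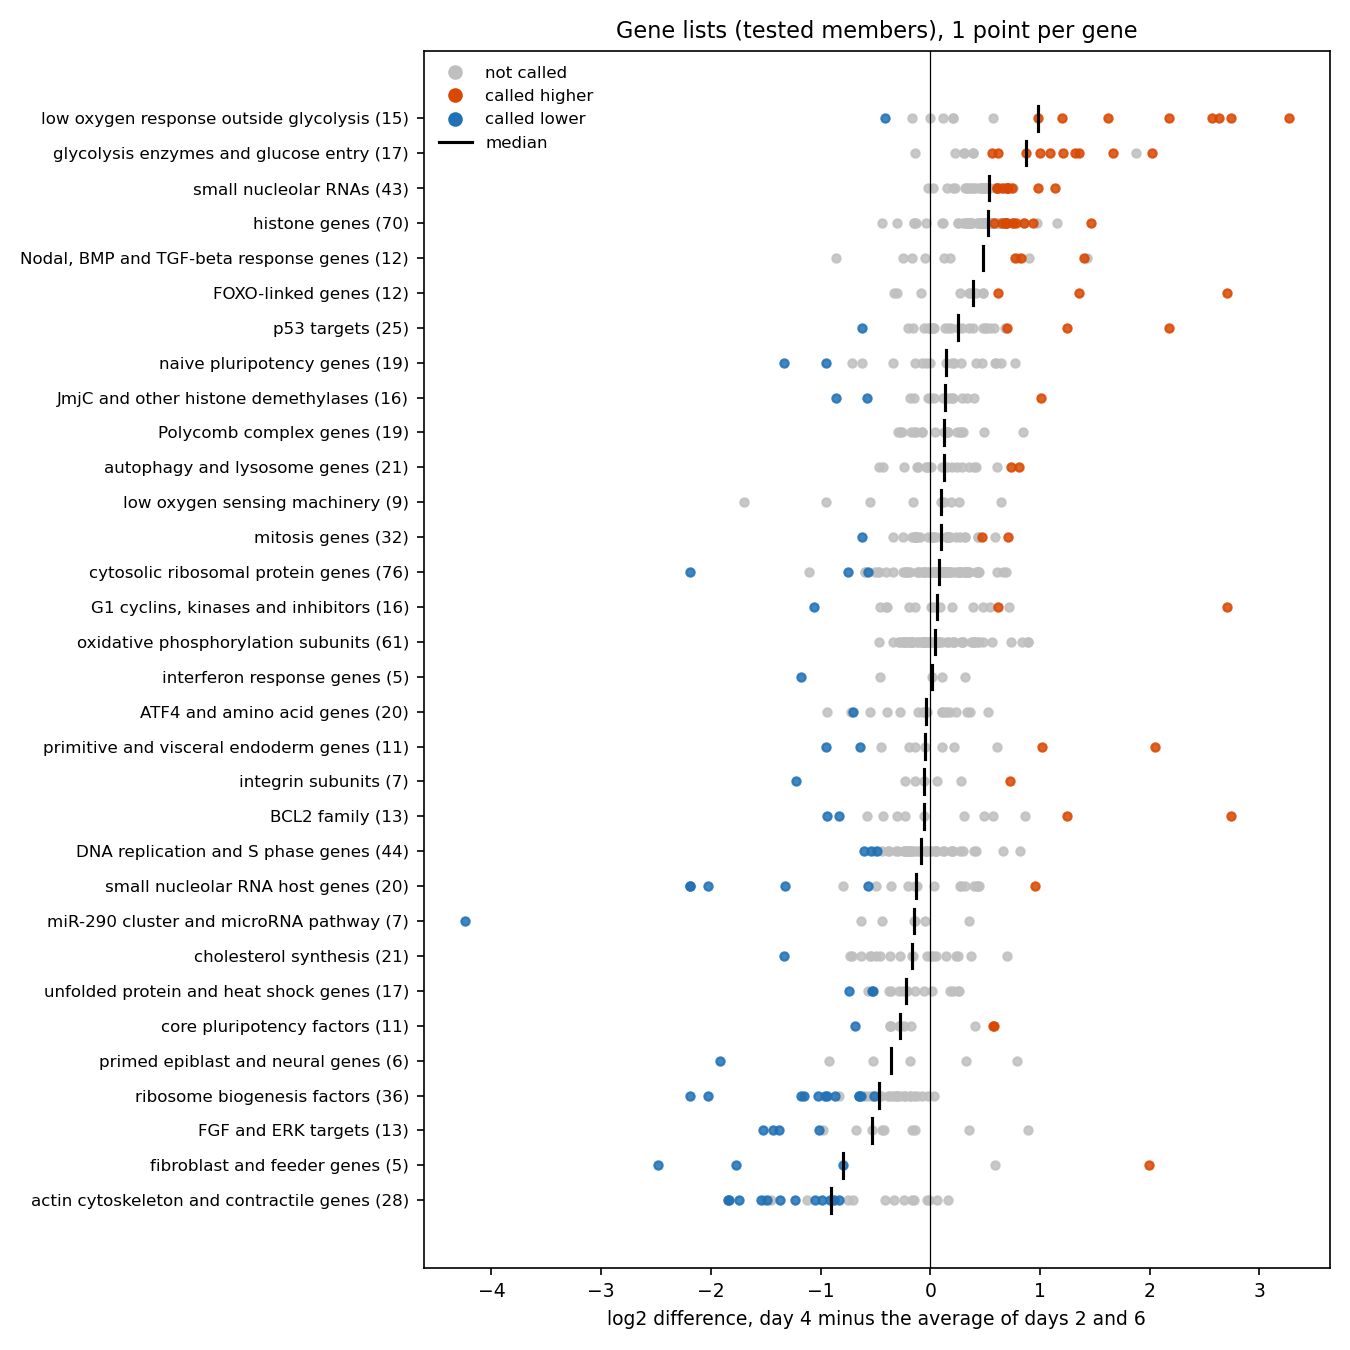
Each row is a list of genes and each point 1 tested member (number in parentheses), placed by its log2 contrast of day 4 with the average of days 2 and 6, with the list's median as a black bar. The medians run from 0.98 for low oxygen genes outside glycolysis to -0.90 for actin and contractile genes. The median of 0.98 counts Egln3 and Bhlhe40, tested only through their day 4 values, and is not the highest without them. The 61 oxidative phosphorylation genes lie around 0.04 without a call. Lists with fewer than 5 tested members are left out.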

How the data were processed

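RNA-seq values of 12 libraries were used as the authors deposited them, as log2 normalized counts per gene. BWA, DESeq and the mm9 build are named per the submitters' processing notes, which give no version or role, and the sources used here do not give strand handling. The values were returned to normalized counts. Their smallest steps gave the depth, but per library only 44.3% to 57.3% of low values (under 20 reads) came within 0.02 of a whole number of reads, so no count test was the main one.

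The fit was limma 3.58.1 (R 4.3.3) with an intensity trend on log2(normalized count + 1), over the 9 TUNA hairpin libraries (6 residual and 9.31 prior degrees of freedom), for genes with at least 10 normalized counts in 3 libraries. Benjamini-Hochberg adjustment ran over all 8492 genes, with a threshold of 0.05, and every adjusted p given is from this fit. On simulated data with 8405 genes and known changes in this contrast, genes changed 4-fold were called in 96.9% of cases, those changed 2-fold in 56.9% and those changed 1.5-fold in 14.9%, while 5.17% of calls were on unchanged genes. The simulation drew each gene independently, without shifts that many genes of a library share, so these rates may not hold for the measured libraries. Pearson correlations between replicates were 0.919 to 0.960.

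The naming rule picked the 12 largest rises and 12 largest falls with no overlap and a mean of at least 50. It also picked called members and the 4 members of smallest p of each of 38 gene lists, the core pluripotency genes, and the proteins reported to bind TUNA. Not all are named in the text. Left out were the called small nucleolar RNAs, most called histone genes and, of ribosome making, Rrp12, Tcof1, Nop16, Nop14, Polr1a, Utp15 and Utp6. With a library left out, Rrp12 kept its call. Tcof1 and Nop16 lost theirs without any of 5 libraries, Nop14 and Polr1a of 7, and Utp15 and Utp6 of 8. Uncalled members of the glycolysis and low oxygen lists, and Hif1a, Vhl, Cul2, Rbx1 and Hif1an, were named outside this rule, after their values were seen, so that every tested member of those lists is given. Members and lists were chosen with earlier results of these data known. Windows at annotated starts and microRNAs came from RefSeq tables of GRCm38.p6. Alternatives were the libraries in the fit, the scaling, the filter, the pseudocount, limma-voom on the recovered reads (not all whole), a replicate block, the threshold and each library left out. Python 3.11.15 and matplotlib 3.10.9 drew the figures.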

Additional observations from a re-analysis of the deposited data

How the results depend on the processing

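The 4 counts of genes (higher, lower, higher than each flank, lower than each flank) were 249, 283, 69 and 82. With an adjusted p under 0.01 they were 85, 93, 30 and 18. With 1 library left out they ran from 82 to 288, 113 to 313, 31 to 74 and 24 to 101, each lowest without day 4 replicate 2. Whether the replicate numbers pair the libraries is not in the labels and was not settled by the values. Deviations from group means correlated at -0.04 to 0.34 for the same number and -0.35 to 0.33 for other numbers. Of the 9 libraries 5 correlated best with a library of their own number. The main fit had no replicate term. A replicate block gave 463, 480, 145 and 134. The other settings, with the scaling, filter, pseudocount, tool or libraries in the fit changed, kept all 4 counts within 1.5 times, and the 3 scalings moved the median of all genes to at most 0.011. With limma-voom 337 genes were higher and 235 lower. The naming rule picked 134 genes past the threshold, not all of them named in the text. Of these, 60 passed with every library left out in turn and 108 in every other setting at the same threshold. None changed sign under any setting run, limma-voom included. The calls that ended in another setting included those of Mxi1, Tfrc, Pkm2, Bak1, Cdkn1b, Pdgfra, Cdc6 and Ccne1 with no filter on low values (adjusted p up to 0.0856), of Itga3, Timp3, Thbs1, Gtse1 and Ptbp1 with limma-voom (up to 0.138), of Polk with all 12 libraries fitted (0.0598) and of Cdc20, Rps24 and Sparc under at least 1 other scaling (up to 0.0686). Depth and 3 libraries a day limit small changes: the fit called 14.9% of simulated 1.5-fold changes and 96.9% of simulated 4-fold ones (8405 genes, day 4 against the average of days 2 and 6). Shifts shared by the genes of a library were not simulated.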

Other observations

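A set of 17 glycogen genes was chosen after its values were seen, so its counts are a description. Of 7 that were tested, 3 were higher at day 4. Of these, Ppp1r3c and Ppp1r3b passed the filter through day 4 alone and so had to differ in order to be tested. Pgm2, a phosphoglucomutase, which links glucose 1-phosphate and glucose 6-phosphate, had 84.97, 93.1 and 72.3 normalized counts at day 4. It had 28.8, 18 and 22.6 at day 2 and 18.97, 25.5 and 15.2 at day 6, so that every day 4 library was above all others (1.93 ± 0.22, adjusted p 7.15e-05 by limma). Ppp1r3c, a subunit that directs protein phosphatase 1 to glycogen, had 23.2, 27.4 and 20.4 at day 4. At day 2 it had 2.24, 2.27 and 4.28, and at day 6 it was at 2.25 in replicate 1 and listed at 0 in the other replicates (3.36 ± 0.53, 0.00162). Ppp1r3b, another such subunit, had 17.6, 30.8 and 17.1 at day 4 against 4.48, 3.41 and 2.85 at day 2 and 7.50, 8.57 and 3.79 at day 6 (1.94 ± 0.38, 0.0065). The branching enzyme Gbe1 (0.08 ± 0.37) and the phosphorylase Pygb (0.13 ± 0.25) did not pass.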
